A study of Mus musculus with 9 samples.

Results

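The 9 genes Oprm1, Oprd1, Oprk1, Oprl1, Cnr1, Htr3a, Htr3b, Mrgprd and Mrgpre encode opioid, cannabinoid, serotonin and Mas-related receptors through which sensory neurons take up signals of pain, pain relief and itch. They were taken by name from the 24181 genes of the count files, and all 9 were found. Their mRNA was compared between purified primary mouse cultures of 3 cell types in a study of nucleosome spacing in neurons and glia, with 3 biological replicate experiments each. Dorsal root ganglion (DRG) neurons were taken from embryos at E13.5 and kept in culture for about 2 weeks. Oligodendrocyte progenitor cells (OPC) were prepared from cortex at P6 to P9 and kept in culture for 6 to 7 days. Astrocytes were prepared from cortex at P1 to P3 and reached confluence over about 21 days. Mice of either sex gave the glia, and the labels name no strain, treatment or transgene for any group. Donor age, culture time and, for DRG neurons, tissue of origin changed together with cell type, and their parts cannot be told apart.

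Opioid receptors couple to inhibitory Gi/o proteins, which open GIRK potassium channels and lower cyclic AMP. The mu receptor (Oprm1) is the main target of morphine, the delta receptor (Oprd1) binds enkephalins, the kappa receptor (Oprk1) binds dynorphins, and Oprl1 binds nociceptin. Cannabinoid receptor CB1 (Cnr1) uses the same Gi/o route. Htr3a and Htr3b are subunits of the only serotonin receptor that is itself an ion channel, and the B subunit needs the A subunit to form a working channel. Mas-related receptors are best known from sensory neurons, where Mrgprd responds to beta-alanine in a class of skin-innervating nociceptors, while Mrgpre is an orphan receptor.

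Between 30710093 and 53594210 reads per library were assigned to transcripts. Levels are given as CPM, read counts brought to a common library size with scaling factors. A count of 0 over the 3 libraries of a group allows a level of up to 0.0259 CPM in DRG neurons, 0.0222 CPM in OPC and 0.0228 CPM in astrocytes, counting error only. Markers of the labelled cell types had their highest sums in their own cultures. The 9 sensory neuron markers summed to 6458 to 6685 CPM in DRG neurons, 10.9 to 16.9 CPM in OPC and 2.60 to 10.7 CPM in astrocytes. Prph, a defining gene of peripheral neurons counted over several transcripts, was listed at 0 in all libraries. The 5 OPC markers summed to 10.1 to 24.8 CPM in DRG neurons, 5066 to 5964 CPM in OPC and 280 to 1210 CPM in astrocytes. The 7 astrocyte markers summed to 589 to 939 CPM in DRG neurons, 690 to 940 CPM in OPC and 5865 to 7246 CPM in astrocytes. Of these, S100b was called higher in DRG neurons, with 708 ± 189 CPM against 50.3 ± 22.5 CPM in astrocytes (edgeR adjusted p = 0.00585). Other cells left traces, and their part in the receptor levels was not tested. Microglia markers summed to 3.54 to 11.8 CPM in DRG neurons, 13.0 to 142 CPM in OPC and 345 to 2150 CPM in astrocytes, with the highest sum in Astrocytes replicate 1. Fibroblast and mural markers summed to 157 to 334 CPM in DRG neurons, 0.894 to 1.73 CPM in OPC and 426 to 6211 CPM in astrocytes. Most of the astrocyte sums was Acta2, with 413, 4639 and 5998 CPM in Astrocytes replicates 1 to 3. The markers of this list did not share 1 direction. Of the 7, 3 were called higher and 2 lower in DRG neurons than in astrocytes, where 27.4% of all genes tested were called higher and 32.8% lower.

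Of the 9 genes, 6 passed the filter on low counts. The 3 that did not were Oprk1, Oprl1 and Mrgprd. Each of the 6 was called higher in DRG neurons than in astrocytes, where 27.4% of the 14848 genes tested were called higher and 32.8% lower. Each was also called higher in DRG neurons than in OPC, where 28.4% of all genes were called higher and 31.1% lower. A call is an adjusted p under 0.05 by edgeR's quasi-likelihood F-test, adjusted by the Benjamini-Hochberg method over all genes tested. Oprm1, Oprd1, Htr3a and Htr3b passed the filter through the DRG libraries, so the counts of calls carry no weight of their own. Both comparisons use the same DRG libraries and are given side by side.

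The stretch of 250 bases before the transcription start is printed for the 5 called receptors that RefSeq's promoter table of GRCm38.p6 holds, so that their upstream DNA can be set beside their levels. Each sequence runs 5′ to 3′ on the strand of its gene, and capitals mark a match on either strand to any of 3 motifs. The GC box was searched with the letters GGGCGG. The TATA box, of which no match fell in these windows, was searched as TATAAA on both strands. The core of sites for RUNX factors was searched with the letters TGTGGT. The windows are chr4:132144487-132144736 (minus strand) for Oprd1, chr4:33924394-33924643 (plus) for Cnr1, chr10:6788326-6788575 (plus) for Oprm1, chr7:143784501-143784750 (minus) for Mrgpre and chr9:48964991-48965240 (minus) for Htr3b.
Oprd1: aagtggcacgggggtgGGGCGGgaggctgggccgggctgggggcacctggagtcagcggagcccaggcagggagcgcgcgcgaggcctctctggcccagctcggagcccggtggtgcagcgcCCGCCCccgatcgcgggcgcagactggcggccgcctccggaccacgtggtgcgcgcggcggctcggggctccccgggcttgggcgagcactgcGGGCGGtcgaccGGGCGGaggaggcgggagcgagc
Cnr1: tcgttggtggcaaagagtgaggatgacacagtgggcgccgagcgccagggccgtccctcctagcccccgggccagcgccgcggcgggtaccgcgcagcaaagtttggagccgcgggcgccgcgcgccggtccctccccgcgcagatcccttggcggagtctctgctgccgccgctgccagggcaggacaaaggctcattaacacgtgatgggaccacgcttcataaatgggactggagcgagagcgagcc
Oprm1: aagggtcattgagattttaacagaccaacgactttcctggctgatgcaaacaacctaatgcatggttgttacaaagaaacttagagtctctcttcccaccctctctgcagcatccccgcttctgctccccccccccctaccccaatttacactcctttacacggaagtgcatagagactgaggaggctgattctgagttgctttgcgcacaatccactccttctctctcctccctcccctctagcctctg
Mrgpre: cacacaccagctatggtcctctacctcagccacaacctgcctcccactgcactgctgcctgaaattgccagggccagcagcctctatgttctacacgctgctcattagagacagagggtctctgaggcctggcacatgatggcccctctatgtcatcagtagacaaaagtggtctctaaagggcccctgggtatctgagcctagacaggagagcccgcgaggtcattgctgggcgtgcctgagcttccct
Htr3b: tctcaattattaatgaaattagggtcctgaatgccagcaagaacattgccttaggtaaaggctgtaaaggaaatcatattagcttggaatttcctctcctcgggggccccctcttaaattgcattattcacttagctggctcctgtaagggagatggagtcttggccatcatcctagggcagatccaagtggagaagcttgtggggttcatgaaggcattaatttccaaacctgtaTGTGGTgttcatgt

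The Oprd1 window held 34 CpG sites and 4 GC boxes, and the Cnr1 window 28 CpG sites and no match. Oprm1 and Mrgpre had 4 CpG sites each and no match, and Htr3b had 1 CpG site and 1 RUNX core. Over all 32851 windows of the table the median was 6 CpG sites (quartiles 2 and 16). A GC box stood in 32.7% of all windows, a TATA box in 12.4% and a RUNX core in 14%. The called receptors thus included CpG-rich and CpG-poor starts. The Oprm1 window begins from the table's start nearest to the counted transcript, 233 bases away from it, and the Cnr1 window from a start 12 bases away. Oprk1 and Htr3a had no entry in the table.

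Oprm1 mRNA was read in every DRG library and in almost no glial one. It stood at 5.01, 9.54 and 12.8 CPM in DRG replicates 1 to 3, at 0 in all 3 OPC libraries, and at 0, 0.0712 and 0 CPM in astrocytes. All 3 astrocyte reads of Oprm1 lay in replicate 2, the astrocyte library with the highest sum of sensory neuron markers (10.7 CPM, against 3.31 and 2.60 CPM in replicates 1 and 3). The DRG libraries lay above every glial library. In bulk RNA, fewer expressing cells and less RNA per cell cannot be told apart, here and for the other receptors. DRG neurons had at least 428-fold more Oprm1 than OPC, against a floor of 3 counts over the 3 OPC libraries (edgeR adjusted p = 0.000216). Against astrocytes the ratio of summed counts, 1098 to 3, was 416 (95% counting interval 142 to 2018, edgeR adjusted p = 0.000326). The fitted log2 fold change against astrocytes was 8.45, and it was 7.80 without Astrocytes replicate 1. Without Astrocytes replicate 2 no astrocyte read was left and the ratio has no upper bound. The counted Oprm1 transcript belongs to a gene at chr10:6758593-7038209 on the plus strand. It shares 89 of its 2420 exonic bases with Ipcef1 on the other strand, which had 0 to 80 reads per library.

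Oprd1 was likewise read mainly in DRG neurons, with a wider spread between libraries than Oprm1. Its levels were 12.6, 3.71 and 2.38 CPM in DRG replicates 1 to 3, 0.0894, 0.0407 and 0.0481 CPM in OPC, and 0.0188, 0.0475 and 0 CPM in astrocytes. No glial library came near the lowest DRG library. The difference from OPC was 6.65 on the log2 scale, or 100-fold (SE 0.88, edgeR adjusted p = 0.000203). SE is calculated back from the log2 fold change and its F statistic. DRG replicate 1 carried much of it, and without that library the log2 fold change was 5.62. Against astrocytes, which had 3 reads in all, the ratio was 243 (82.6 to 1179, edgeR adjusted p = 0.00013). The fitted value there was 7.92, with 6.91 without DRG replicate 1 and 8.80 without Astrocytes replicate 2. The gene lies at chr4:132110188-132144486 on the minus strand.

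Oprk1 and Oprl1 had 0 counts in all 9 libraries. Each is counted over a pair of transcripts, and a read that both transcripts of a gene share was set aside as ambiguous. The Oprl1 transcripts have 142 and 227 bases that the other lacks. The Oprk1 transcripts match the same annotated transcript, and no base unique to either could be measured. The listed 0 therefore does not measure the level of the kappa or nociceptin receptor in any of these cultures. Of the 2876 genes with 2 transcripts in the files, 14.7% were at 0 throughout, against 20.6% of the genes with 1 transcript. Oprk1 lies at chr1:5588450-5606134 and Oprl1 at chr2:181715000-181720985, both on the plus strand.

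Cnr1 was present in all 3 cell types and highest in DRG neurons. It measured 30.8, 93.9 and 76.8 CPM in DRG replicates 1 to 3, 13.1, 7.41 and 4.09 CPM in OPC, and 5.38, 8.57 and 10.1 CPM in astrocytes. The lowest DRG library exceeded the highest glial library, while the OPC and astrocyte ranges overlapped. Compared with OPC, Cnr1 was 8.18-fold higher in DRG neurons (log2 3.03, SE 0.54, edgeR adjusted p = 0.00108). Compared with astrocytes, it was 8.38-fold higher (log2 3.07, SE 0.54, edgeR adjusted p = 0.00103). OPC and astrocytes averaged 8.21 ± 4.58 and 8.02 ± 2.42 CPM (SD, n = 3 each), a log2 difference of 0.04 with an SE of 0.50. Its sign turned to −0.08 with DESeq2 size factors and −0.09 with library size alone. Pan-neuronal markers summed to 212 to 231 CPM in OPC and 12.3 to 24.0 CPM in astrocytes, and their part in glial Cnr1 was not tested. Cnr1 lies at chr4:33923171-33948831 on the plus strand.

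The subunits of the serotonin-gated channel were read almost wholly in DRG neurons. Htr3b stood at 21.2, 18.8 and 39.0 CPM in DRG neurons, with 4 reads in all OPC libraries together and 1 read in the astrocytes. Htr3a stood at 0.981, 5.09 and 8.18 CPM in DRG neurons, with 1 read in OPC and 0 in astrocytes. Every DRG library lay above every glial library for both subunits. Compared with OPC, Htr3b was 815-fold higher in DRG neurons (log2 9.67, SE 0.64, edgeR adjusted p = 6.18e-06). Against astrocytes the Htr3b ratio of counts was 3443 (618 to 136053, edgeR adjusted p = 3.59e-06). That 1 read lay in Astrocytes replicate 2, without which the Htr3b ratio has no upper bound. The Htr3a ratio to OPC was 688 (123 to 27211, edgeR adjusted p = 0.000724), and DRG neurons had at least 223-fold more Htr3a than astrocytes (edgeR adjusted p = 0.000616). Without DRG replicate 3, the highest, the fitted Htr3a log2 fold change was 8.20 rather than 8.84 against OPC and 10.04 rather than 10.66 against astrocytes. Without OPC replicate 3, which held the OPC read, the Htr3a ratio to OPC has no upper bound.

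The levels of the subunits cannot be set against each other. Htr3a is counted over a pair of transcripts, of which the first has 1 base that the other lacks and the second 96. All 589 reads of Htr3a fell to the second, so the gene was under-counted. Htr3a (chr9:48899213-48911152) and Htr3b (chr9:48935008-48964990) are neighbours on the minus strand. No exonic base of Htr3a is shared with the antisense gene Gm32335 that overlaps it.

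The Mas-related receptors Mrgpre and Mrgprd differed widely in level. Mrgpre measured 71.9, 76.8 and 79.5 CPM in DRG neurons, 27.3, 15.9 and 22.7 CPM in OPC, and 19.0, 10.3 and 13.2 CPM in astrocytes. The DRG libraries were close together and above all glial libraries. Mrgpre in DRG neurons exceeded OPC 3.46-fold (log2 1.79, SE 0.28, edgeR adjusted p = 0.000508). It exceeded astrocytes 5.36-fold (log2 2.42, SE 0.28, edgeR adjusted p = 0.000101). Mrgprd had 2, 0 and 1 reads in DRG replicates 1 to 3 and none in glia, and it was not tested. At this depth the beta-alanine receptor was not detectable above the floor of 3 counts in these DRG cultures. Mrgpre lies at chr7:143778363-143784500 on the minus strand and Mrgprd at chr7:145314835-145324059 on the plus strand. A microRNA gene, Gm22064, covers 66 of the 3761 exonic bases of Mrgpre.

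**Figure D1:**
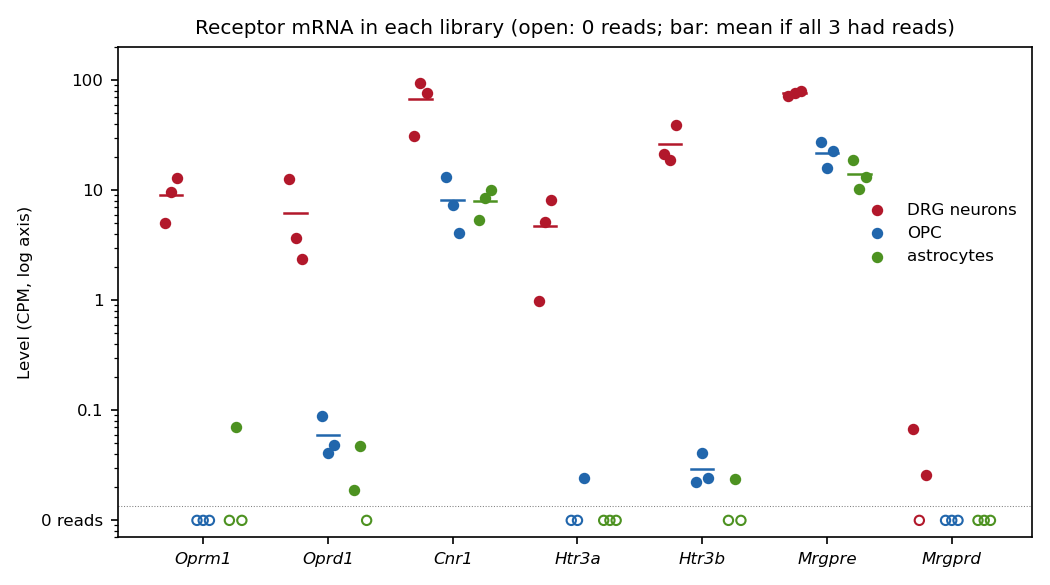
CPM of 7 receptor genes in each library on a log axis, with points for libraries, bars for means where all 3 libraries had reads, and open circles for 0 reads. Oprm1, Oprd1, Htr3a and Htr3b separate DRG neurons from glia near the floor, Cnr1 and Mrgpre are also read in OPC and astrocytes, and Mrgprd has 3 reads in all.

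Between OPC and astrocytes none of the 6 receptors was called by edgeR, and none by DESeq2's Wald test, while 26.3% of all genes tested were called higher and 25.5% lower in OPC. Only 1 of the 6 had an unadjusted p under 0.05. This was Mrgpre, at 22.0 ± 5.73 CPM in OPC and 14.2 ± 4.44 CPM in astrocytes (SD, n = 3 each; log2 0.63, SE 0.27, edgeR adjusted p = 0.0796). The ranges overlapped. Leaving out Astrocytes replicate 1 gave 0.0203 and leaving out OPC replicate 2 gave 0.0402, and the adjusted p stayed above 0.05 in the other alternatives. Oprm1, Oprd1, Htr3a and Htr3b had 0 to 8 reads per glial cell type, too few to set a size for any difference.

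Per kilobase of transcript, which allows levels of different genes to be compared, the order in DRG neurons began with Mrgpre at 20.2 ± 1.02 CPM per kb. Cnr1 followed at 11.6 ± 5.62, Htr3b at 10.9 ± 4.58, Oprm1 at 3.77 ± 1.62, Oprd1 at 1.55 ± 1.39 and Mrgprd at 0.00991 ± 0.0109 CPM per kb (SD, n = 3). Cnr1 and Htr3b overlapped within these errors, as did Oprm1 and Oprd1. Mrgpre stood clear of Cnr1, and Htr3b clear of Oprm1, by the counted reads. Oprm1 and Cnr1 were each counted on 1 transcript, of 10 and 4 that RefSeq lists. Reads on exons that only the other transcripts hold were not counted, so the places of Oprm1 and Cnr1 in this order are uncertain. In glia only Mrgpre and Cnr1 exceeded 1 CPM per kb. Mrgpre had 5.84 ± 1.52 and Cnr1 1.41 ± 0.789 CPM per kb in OPC, and Mrgpre had 3.77 ± 1.18 and Cnr1 1.38 ± 0.416 CPM per kb in astrocytes. Htr3a, Oprk1 and Oprl1 were left out of this order because each is counted over a pair of transcripts, and how many of their reads were set aside is not known.

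The receptors did not vary together across the DRG libraries. Mrgpre had a ratio of 1.11 between its highest and lowest DRG library. The ratio was 2.07 for Htr3b, 2.56 for Oprm1, 3.05 for Cnr1, 5.31 for Oprd1 and 8.34 for Htr3a. Oprm1, Cnr1 and Htr3a were lowest in DRG replicate 1, whereas Oprd1 was highest there. Among the sensory neuron markers, Scn10a, a sodium channel of nociceptors, was lowest in DRG replicate 1 at 19.1 CPM, against 110 and 148 CPM in replicates 2 and 3. Isl1, a sensory neuron transcription factor, was also lowest there, with a ratio of 2.79. Pou4f1 (ratio 1.10) and Scn11a (1.16) differed little between the libraries. Mrgpra2b, chosen after its values were seen, had 0.981 CPM in replicate 1, against 10.8 and 12.9 CPM in replicates 2 and 3. DRG replicate 1 had the fewest assigned reads of the series, 30710093, and its sensory neuron markers summed to 6588 CPM, against 6685 and 6458 CPM in replicates 2 and 3. The part of depth in these differences was not tested.

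**Figure D2:**
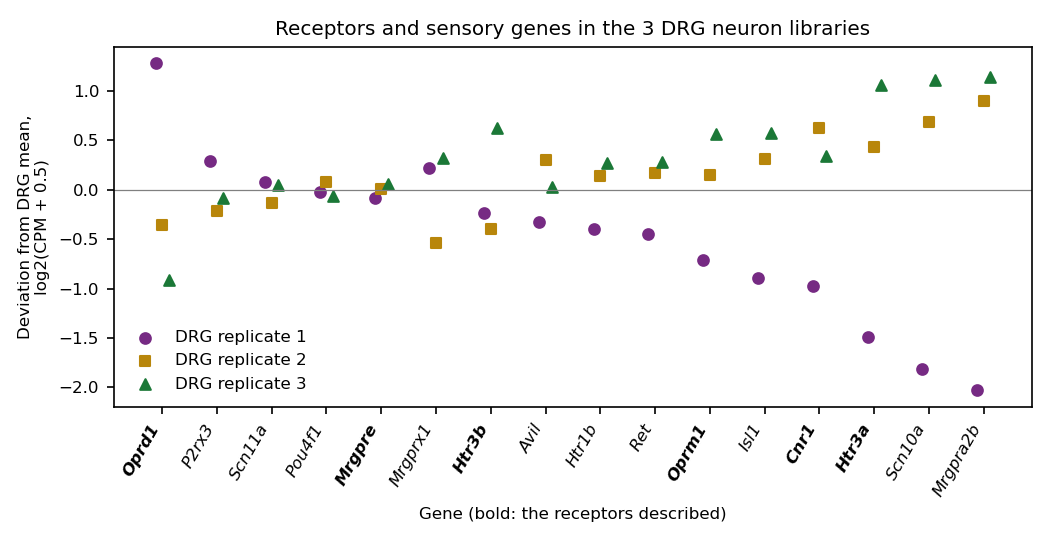
Deviation of each DRG library from the DRG mean on the log2(CPM + 0.5) scale, for 6 receptors (bold) and for other sensory genes, with a marker shape per replicate. Replicate 1 is high for Oprd1 and low for Oprm1, Cnr1, Htr3a and Scn10a, while Mrgpre and Pou4f1 stay near 0 in all 3 libraries.

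The genes whose levels were most like those of each receptor were found by Pearson's r of log2(CPM + 0.5) over the 9 libraries. These fall into 3 cell types and are not independent points, so r is a description and no test was made. Oprm1 was most like Ebf1, Gm765 and Scn9a, the last a sodium channel of nociceptors (r = 0.999 each), and 806 genes exceeded r = 0.95. Htr3b was most like Gpr15, Hoxc10 and Atg16l1 (r = 0.998 to 0.999, with 816 genes over 0.95). Htr3a was most like Smr3a, Gm10754 and the potassium channel gene Kcnk18 (0.998 to 0.999, 249 genes). Kcnk18 had 4.09, 50.8 and 76.0 CPM in DRG replicates 1 to 3, the order seen for Htr3a. Oprd1 was most like Cdh12, the serotonin receptor gene Htr2c and Rtl1 (0.996 to 0.998, 197 genes), all 3 highest in DRG replicate 1. Cnr1 was most like Usp33, Herc2 and Uhmk1 (0.981 to 0.987, 140 genes), and Mrgpre most like Rab2b, Mgat3 and Tubb4a (0.988 to 0.992, 278 genes).

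Among genes that make opioid peptides, the 3 enzymes tested that process the precursors were called in both DRG comparisons. The proprotein convertases Pcsk1 and Pcsk2, which cleave peptide precursors, were called higher in DRG neurons than in either glial type. Pcsk1 averaged 84.8 ± 7.58 CPM in DRG neurons, 0.118 ± 0.145 CPM in OPC and 0.0715 ± 0.0341 CPM in astrocytes. Pcsk2 averaged 272 ± 4.78, 17.6 ± 2.69 and 0.999 ± 0.681 CPM in the same order of groups. Its log2 fold change against astrocytes was 8.06, and 8.77 without Astrocytes replicate 1. For Pcsk1 against OPC it was 9.40, and 11.12 without OPC replicate 2. Pcsk1 had 17 reads in OPC and 9 in astrocytes and passed the filter through the DRG libraries. Its calls, and their part in the list's counts, therefore carry no weight of their own. Cpe, the carboxypeptidase that trims the cleaved peptides, averaged 1406 ± 188 CPM in DRG neurons, 431 ± 107 CPM in OPC and 3066 ± 1563 CPM in astrocytes. Cpe in DRG neurons was called higher against OPC (log2 1.71, edgeR adjusted p = 0.00284) and lower against astrocytes (log2 −1.12, edgeR adjusted p = 0.0208). The second call was lost without Astrocytes replicate 1 (0.0584), DRG replicate 2 (0.051) or DRG replicate 3 (0.074), and with only the compared cell types in the fit (0.053).

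Penk, the enkephalin precursor, had 1.73, 0.589 and 1.24 CPM in DRG neurons, 1.79, 1.38 and 2.19 CPM in OPC, and 0.0941, 1.09 and 0.968 CPM in astrocytes, and was not called in either DRG comparison. The untested precursors Pdyn, Pomc and Pnoc, named after their values were seen, are each counted over several transcripts, so their 0 to 31 reads per cell type do not measure their level. Of 7 genes in the list 4 were tested. Against astrocytes 2 were called higher and 1 lower in DRG neurons (27.4% and 32.8% of all genes tested; median log2 4.39, against −0.13 over all genes). Against OPC 3 were called higher and none lower (28.4% and 31.1% of all genes; median 2.83, against −0.08 over all genes).

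Of 11 endocannabinoid genes 10 were tested. In DRG neurons 3 were called higher and 4 lower than in astrocytes (median log2 0.22), and 3 higher and none lower than in OPC (median 0.49). Over all genes tested the shares were 27.4% higher and 32.8% lower against astrocytes, near those of the list, and 28.4% higher and 31.1% lower against OPC. Without Astrocytes replicate 1 and OPC replicate 3 these counts were 6 higher and 2 lower against astrocytes, and 5 higher against OPC. Without Astrocytes replicate 1, DRG replicate 1 or 2, or OPC replicate 3 the 4 lower against astrocytes became 2. Cnrip1, which binds the tail of the CB1 receptor, averaged 88.9 ± 8.48 CPM in DRG neurons, 58.5 ± 3.14 CPM in OPC and 27.6 ± 2.33 CPM in astrocytes. In DRG neurons it was called higher against OPC (log2 0.60, edgeR adjusted p = 0.00778) and against astrocytes (log2 1.69, edgeR adjusted p = 2.74e-05). Faah, which degrades anandamide, had 38.9, 39.7 and 30.4 CPM in DRG neurons, 49.9, 42.3 and 44.0 CPM in OPC and 15.1, 3.30 and 4.12 CPM in astrocytes. Against astrocytes Faah was called higher in DRG neurons (log2 2.27, edgeR adjusted p = 0.00445), with 3.29 without Astrocytes replicate 1.

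Cnr2, the cannabinoid receptor known from immune cells, went the other way from Cnr1 against astrocytes. Its levels were 0.271, 0.0842 and 0.0516 CPM in DRG neurons, 0.156, 0.488 and 0.914 CPM in OPC, and 5.70, 1.85 and 1.74 CPM in astrocytes. Against astrocytes Cnr2 was called lower in DRG neurons (log2 −4.56, SE 0.89, edgeR adjusted p = 0.0019), with −3.79 without Astrocytes replicate 1 and −5.43 without DRG replicate 1. It was not called against OPC (log2 −1.99, edgeR adjusted p = 0.0732). The 7 microglia markers summed to 13.0, 41.5 and 142 CPM in OPC replicates 1 to 3 and to 2150, 372 and 345 CPM in Astrocytes replicates 1 to 3. Cnr2 was highest in the library of each glial type in which these markers were highest, and their part in it was not tested. Naaa, which breaks down N-acylethanolamines and is counted over a pair of transcripts, had 2.05 ± 1.27 CPM in DRG neurons, 0.0216 ± 0.0205 CPM in OPC and 6.77 ± 2.45 CPM in astrocytes. The Naaa ratio of DRG neurons to OPC, which had 3 reads, was 99.4 (33.6 to 485, edgeR adjusted p = 0.000288), and the fitted log2 fold change was 6.37, with 7.13 without OPC replicate 2.

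**Figure D3:**
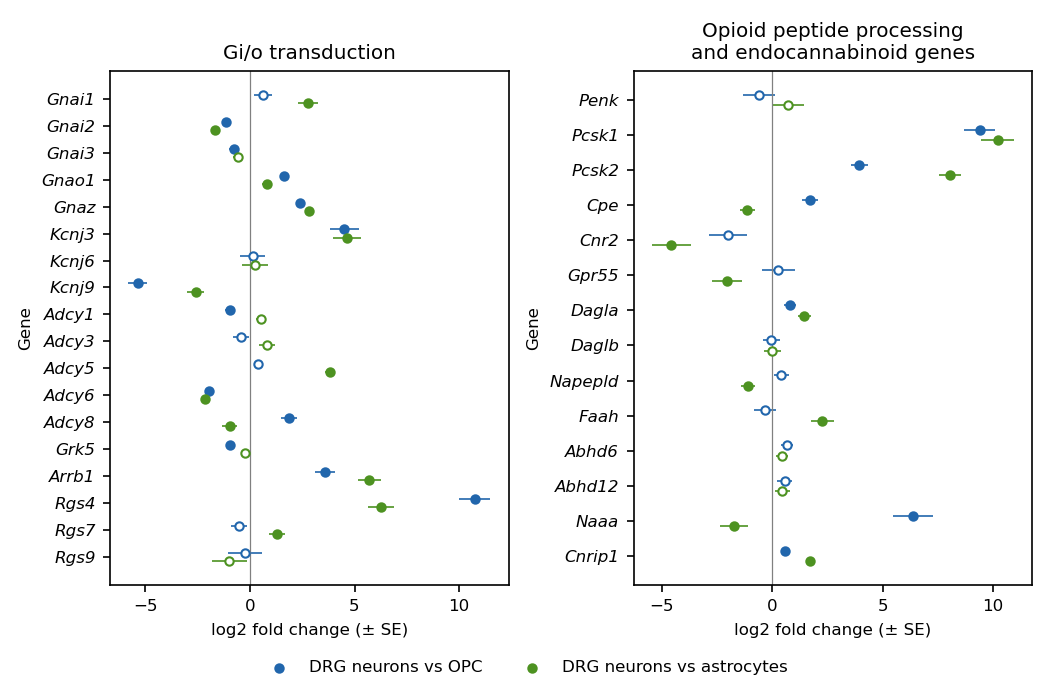
Log2 fold changes of DRG neurons against OPC and against astrocytes with SE bars, for Gi/o transduction genes on the left and for opioid peptide and endocannabinoid genes on the right. Filled points were called and open points were not. Rgs4 and Pcsk1 lie far to the right in both comparisons, and Kcnj9 and Gnai2 lie left of 0 in both.

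Genes of the Gi/o machinery that opioid and CB1 receptors use were called in both directions, as were genes in general. Of 23 genes 18 were tested. Against astrocytes 8 were called higher and 4 lower in DRG neurons (median log2 0.67), and against OPC 6 were called higher and 6 lower (median −0.06). Of all genes tested, 27.4% were called higher and 32.8% lower against astrocytes, and 28.4% higher and 31.1% lower against OPC. Gnao1, the main Go alpha subunit of neurons, averaged 750 ± 50.7 CPM in DRG neurons, 238 ± 17.8 CPM in OPC and 431 ± 121 CPM in astrocytes. In DRG neurons it was called higher against OPC (log2 1.65, edgeR adjusted p = 0.000183) and against astrocytes (log2 0.80, edgeR adjusted p = 0.00905). With library size alone the second adjusted p was 0.05. Gnao1 is counted over a pair of transcripts, and on the higher of them alone the log2 fold changes were 4.37 against OPC and 2.93 against astrocytes. Gnai2 had 386 ± 53.4 CPM in DRG neurons, 845 ± 141 CPM in OPC and 1226 ± 45.8 CPM in astrocytes, and in DRG neurons was called lower against OPC (log2 −1.13, edgeR adjusted p = 0.000773) and against astrocytes (log2 −1.67, edgeR adjusted p = 8.92e-05). Gnai3 averaged 139 ± 15.9, 238 ± 73.7 and 205 ± 24.9 CPM in the same order of groups. Its call against OPC (log2 −0.78, edgeR adjusted p = 0.0208) was lost without DRG replicate 2 (0.0671), DRG replicate 3 (0.0711), OPC replicate 1 (0.0651) or OPC replicate 2 (0.0753). Rgs4, which speeds the shut-off of Gi/o signals, had 620, 1321 and 1303 CPM in DRG neurons, 0.402, 0.997 and 0.457 CPM in OPC, and 24.3, 10.6 and 7.30 CPM in astrocytes. Its log2 fold change was 10.75 against OPC (edgeR adjusted p = 7.74e-06) and 6.26 against astrocytes (edgeR adjusted p = 3.54e-05), or 6.91 without Astrocytes replicate 1.

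GIRK channels are the classical target of the beta-gamma subunits that Gi/o receptors release. Kcnj3, the GIRK1 subunit, had 9.98, 5.98 and 2.45 CPM in DRG neurons, 0.380, 0.244 and 0.168 CPM in OPC, and 0.207, 0.119 and 0.415 CPM in astrocytes. Kcnj3 was called higher in DRG neurons against OPC (log2 4.52, SE 0.68, edgeR adjusted p = 0.00042) and against astrocytes (log2 4.64, SE 0.69, edgeR adjusted p = 0.000392). The order of the DRG libraries, highest in replicate 1 and lowest in replicate 3, was that of Oprd1. Kcnj9, the GIRK3 subunit, went the other way, with 0.122 ± 0.0515 CPM in DRG neurons, 5.15 ± 0.338 CPM in OPC and 0.748 ± 0.189 CPM in astrocytes. Kcnj9 was called lower in DRG neurons against OPC (log2 −5.37, edgeR adjusted p = 1.49e-05) and against astrocytes (log2 −2.59, edgeR adjusted p = 0.000593). Kcnj6 averaged 0.377 ± 0.0358, 0.345 ± 0.166 and 0.324 ± 0.208 CPM in DRG neurons, OPC and astrocytes and was not called. Kcnj5 had 5, 15 and 7 reads in the same order of groups and was not tested. Kcnj6 is counted over 4 transcripts, so its level is under-counted.

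Several other serotonin receptors, all coupled to G proteins, were called higher in DRG neurons. The list also holds genes of serotonin synthesis and transport, and of its 15 genes 10 were tested. In DRG neurons 4 were called higher and 1 lower than in astrocytes (median log2 2.13), and 7 higher and none lower than in OPC (median 5.25, or 4.73 with Htr1d, at 0 in OPC, set at its lower bound). Among the 7 is Tph2, a serotonin synthesis enzyme and not a receptor. Of all genes tested, 27.4% were called higher against astrocytes and 28.4% against OPC. Htr1d, Htr2c and Htr5a had 0 to 12 reads per glial cell type and passed the filter through the DRG libraries. Without Astrocytes replicate 1 and OPC replicate 3 the counts were 5 and 8 higher, and they were 2 and 4 when at least 1 CPM in 3 libraries was required. Htr1b, a Gi/o-coupled target of migraine triptans, was the highest of them in DRG neurons at 21.9, 32.1 and 35.2 CPM, against 0.128 ± 0.124 CPM in OPC and 0.648 ± 0.609 CPM in astrocytes. Its log2 fold change was 7.80 against OPC (edgeR adjusted p = 0.000512), with 8.91 without OPC replicate 2. Against astrocytes it was 5.53 (edgeR adjusted p = 0.00176), with 4.93 without Astrocytes replicate 1 and 6.45 without Astrocytes replicate 2. Htr5a had 11.3, 8.88 and 6.84 CPM in DRG neurons, with 12 reads in OPC and 1 read in astrocytes. The Htr5a ratio was 99.6 to OPC (56.8 to 193, edgeR adjusted p = 4.69e-05) and 1160 to astrocytes (208 to 45874, edgeR adjusted p = 1.9e-05). The 1 astrocyte read of Htr5a lay in replicate 1, without which that ratio has no upper bound. Htr1d, a Gi/o-coupled relative of Htr1b, had 0.643, 1.31 and 0.955 CPM in DRG neurons and no counted reads in glia, at least 46.0-fold more than in OPC (edgeR adjusted p = 0.000867) and at least 44.7-fold more than in astrocytes (edgeR adjusted p = 0.000902). Htr1d is counted over 4 transcripts, and reads that they share were set aside. Its levels are therefore under-counted, the 0 in glia does not measure its level there, and both bounds hold for the counted reads only. Htr2c, a Gq-coupled receptor, had 1.66, 0.737 and 0.516 CPM in DRG neurons, with 1 read in OPC and none in astrocytes. The Htr2c ratio to OPC was 122 (21.4 to 4850, edgeR adjusted p = 0.000894), with no upper bound without OPC replicate 2, and DRG neurons had at least 39.4-fold more than astrocytes (edgeR adjusted p = 0.000667).

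Htr7, a Gs-coupled receptor, had 7.85, 1.52 and 1.19 CPM in DRG neurons, the order seen for Oprd1, with 2 reads in OPC and 0.169, 1.16 and 1.80 CPM in astrocytes. The Htr7 ratio to OPC was 205 (56.2 to 1697, edgeR adjusted p = 0.00116). Its fitted log2 fold change there was 7.63, with 6.27 without DRG replicate 1 and 8.24 without OPC replicate 3, and it was not called against astrocytes (log2 1.76, edgeR adjusted p = 0.128). Htr2b averaged 0.173 ± 0.0785 CPM in DRG neurons and 0.775 ± 0.673 CPM in astrocytes and was called lower in DRG neurons (log2 −2.18, edgeR adjusted p = 0.0271). That call was lost without Astrocytes replicate 1 (log2 −1.19, 0.135) and without any of the DRG replicates 1 to 3 (0.0581, 0.103 and 0.0521), and with only the compared cell types in the fit (0.0504).

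Of 17 further Mas-related receptors 16 were in the files and 6 were tested. In DRG neurons 5 were called higher than in astrocytes and all 6 higher than in OPC, and none lower, where 27.4% and 28.4% of all genes tested were called higher. Each count was 1 when at least 1 CPM in 3 libraries was required. Because 4 of the 6 had 0 reads in OPC and 2 in astrocytes, the list passed the filter mostly through DRG neurons. The median log2 fold change with such genes at their lower bound was 5.99 against astrocytes and 6.36 against OPC. Mrgprx1, a receptor for itch-inducing peptides, had 55.1, 32.5 and 59.3 CPM in DRG neurons, with 2 reads in OPC and 3 in astrocytes. Its ratio was 3199 to OPC (885 to 26418, edgeR adjusted p = 1.03e-05) and 2070 to astrocytes (708 to 10039, edgeR adjusted p = 8.52e-06). The fitted log2 fold change of Mrgprx1 was 11.43 against OPC, with 12.03 without OPC replicate 3, and 10.88 against astrocytes, with 10.22 without Astrocytes replicate 1. All 3 astrocyte reads of Mrgprx1 lay in replicate 2, as did those of Oprm1, and without it the ratio has no upper bound. Mrgpra2b had at least 405-fold more mRNA in DRG neurons than in OPC (edgeR adjusted p = 0.000766). Its close relative Mrgpra2a had 0.406, 3.54 and 3.74 CPM in DRG neurons and none in glia, at least 127-fold more than in OPC (edgeR adjusted p = 0.00411) and at least 123-fold more than in astrocytes (edgeR adjusted p = 0.00417). Reads that align equally well to near-identical family members were not assigned, so levels in the Mrgpra group are uncertain. Mrgpra3, the chloroquine receptor, chosen after its values were seen, had 5 reads in DRG neurons and none in glia, and was not tested.

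**Figure D4:**
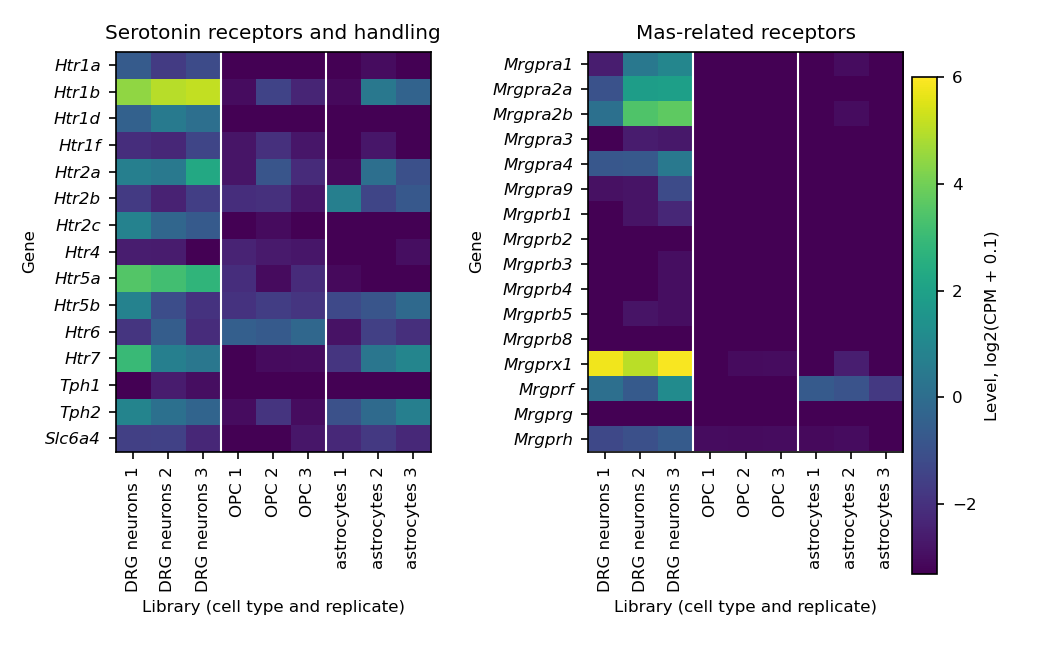
Level of other serotonin receptor and handling genes (left) and other Mas-related receptor genes (right) in each library, as log2(CPM + 0.1) on a colour scale. Htr1b and Htr5a are bright in all 3 DRG libraries and Mrgprx1 is the brightest of its family, while Mrgpra2b and Mrgpra2a are dimmer in DRG replicate 1 than in replicates 2 and 3.

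The remaining itch genes differed in direction between the comparisons. Of 10 genes 6 were tested, with 1 called higher (2 without DRG replicate 1) and 4 lower in DRG neurons than in astrocytes (median log2 −3.56), and 2 higher and none lower than in OPC (median 1.41). Of all genes tested, 27.4% were called higher and 32.8% lower against astrocytes, and 28.4% higher and 31.1% lower against OPC. Il31ra, a subunit of the interleukin-31 receptor, had 1.12, 1.87 and 4.57 CPM in DRG neurons, with 1 read in OPC and 22 reads in astrocytes. Its log2 fold change against astrocytes was 3.81 (SE 1.04, edgeR adjusted p = 0.0107), with 3.18 and 5.03 without Astrocytes replicates 1 and 2 and 3.06 without DRG replicate 3. The Il31ra ratio to OPC was 350 (62.3 to 13860, edgeR adjusted p = 0.00125), and the fitted log2 fold change was 7.94, or 7.20 without DRG replicate 3. Its OPC read lay in replicate 2, without which the ratio has no upper bound. Il31ra passed the filter through the DRG libraries, so its calls carry no weight of their own. Osmr, the partner subunit, which also serves oncostatin M, had 11.1, 5.20 and 12.7 CPM in DRG neurons, 0.112, 0.102 and 0.0481 CPM in OPC, and 140, 178 and 148 CPM in astrocytes. Osmr was called 106-fold higher in DRG neurons against OPC (log2 6.73, SE 0.46, edgeR adjusted p = 6.84e-06). It was called 16.1-fold lower against astrocytes (SE 0.35 on the log2 scale, edgeR adjusted p = 2.03e-05). S1pr1, a sphingosine-1-phosphate receptor, averaged 3.00 ± 0.627 CPM in DRG neurons, 4.82 ± 1.98 CPM in OPC and 147 ± 20.2 CPM in astrocytes, and was called lower in DRG neurons against astrocytes (log2 −5.62, edgeR adjusted p = 4.12e-06). F2rl1, a receptor activated by protease cleavage, had 0.237, 0.105 and 0 CPM in DRG neurons, 0, 0.0611 and 0.0241 CPM in OPC, and 3.08, 31.5 and 10.1 CPM in astrocytes. It was called lower in DRG neurons against astrocytes (log2 −7.07, SE 1.22, edgeR adjusted p = 0.000957), with −5.89 without Astrocytes replicate 2, −7.97 without DRG replicate 1 and −6.46 without DRG replicate 3. Its 12 reads in DRG neurons and 4 in OPC were too few for a call between them (edgeR adjusted p = 0.314). F2rl1 passed the filter through the astrocyte libraries, so its call against them carries no weight of its own.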

How the data were processed

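RNA was extracted with TRIzol and made into Illumina TruSeq stranded mRNA libraries, per the labels' protocols. Per the submitters' processing notes, TopHat2 aligned the reads to mm10 and HTSeq counted them. Tool versions, the counting mode and the use of strand: not given in the sources used here. Per the series' design text, replicates were separate experiments. The authors deposited raw read counts per RefSeq transcript, with no normalization. Reads shared by transcripts (22 to 24.7% of all reads) and the other unassigned totals stayed out of library sizes. The 33787 transcripts were named from RefSeq (33315) and GENCODE vM21 (193; 279 unnamed) and summed to 24181 genes.

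Counts of all 9 libraries were fitted with edgeR 4.0.16 in R 4.3.3 (TMM, filterByExpr with minimum count 10, 1 coefficient per cell type, 6 residual degrees of freedom, quasi-likelihood F-test, Benjamini-Hochberg over 14848 genes, threshold 0.05). The SE was calculated back from F and is not a standard error of the fit. Floors and 95% intervals of ratios (exact) cover counting error only. DESeq2 1.42.0 and 17 further alternatives were run, and the fit was tested on simulated data. There 200 genes were raised 2-, 4- or 8-fold in DRG neurons, far fewer than were called in these data. Of 2-fold changes 3.45% were called against astrocytes and 12.1% against OPC. Of 4-fold changes 61.7% and 64.2% were called, and of 8-fold changes 88.3% and 83.3%. A gene that was not called may thus still differ. Tables and figures were made with pandas 2.3.3, scipy 1.17.1 and matplotlib 3.10.9.

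The members and lists were chosen with earlier results of these data known. Named were all members, some of the 5 genes per list and comparison with the largest change (called genes first), for Gi/o genes the 4 most abundant and the GIRK genes, and the 3 genes most like each member. Replicate numbers were not treated as pairs in the main fit. Correlations of same-numbered deviations ran from −0.04 to 0.13, and those of differently numbered ones from −0.13 to 0.08. With 3 libraries a group these values cannot show whether replicates of the same number shared a preparation. Of the sensory neuron markers, 1 counts in the list's sums only, and its own values are not reported here.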

Additional observations from a re-analysis of the deposited data

How the results depend on the processing

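The 18 alternatives refitted the same libraries, and 9 of them left out 1 library each. Every receptor tested kept its call against both glial types wherever it was tested (214 of 214 values, which are not independent). Oprm1, Oprd1, Htr3a and Htr3b passed the filter through the DRG libraries, so their kept calls carry no weight of their own. Cnr1 and Mrgpre were read in all cell types. Over the alternatives the log2 fold change of Cnr1 ran from 2.76 to 3.42 against astrocytes and 2.72 to 3.54 against OPC. That of Mrgpre ran from 2.16 to 2.79 and from 1.60 to 2.07. The 6 receptors called higher in DRG neurons than in OPC, and than in astrocytes, stayed 6 when any 1 library was left out, and were 5 when at least 1 CPM in 3 libraries was required, since Htr3a was then not tested. With the replicate number as a block they were 6 in both comparisons. The count called higher in OPC than in astrocytes, 0, ran from 0 to 1 when libraries were left out. The log2 difference of Cnr1 between OPC and astrocytes, 0.04, turned to −0.08 with DESeq2 size factors, −0.09 with library size alone, −0.08 in DESeq2's Wald test, −0.10 with only the compared cell types, −0.03 without Astrocytes replicate 1 and OPC replicate 3, and ran from −0.47 to 0.23 when 1 library was left out (−0.19 without Astrocytes replicate 1). Library size alone moved the median of all genes by −0.26 for DRG neurons against astrocytes and −0.15 against OPC, and DESeq2 size factors moved the second by 0.17. Among related genes, 90 of the called values lost their call under an alternative and 1683 values did not change side. No value could be given where both groups were at 0. Counts of few reads, transcripts that share reads and 3 libraries a group limit what can be told.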
